A study of Mus musculus with 6 samples.

Results

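The 9 genes examined here encode progenitor regulators of 3 families: the paired-box genes Pax3 and Pax7, the sine oculis homeobox genes Six2, Six4 and Six5, and the Eya genes Eya1, Eya2, Eya3 and Eya4. Their rows were found by gene symbol among the 55414 gene identifiers of the count table, and each of the 9 has one. RNA was sequenced from C2C12, an established line of mouse myoblasts, in 6 libraries. Cells of siControl 1 to 3 were transfected with the negative-control siRNA (siRNA-NC in the labels), and cells of siUsf2 1 to 3 with an siRNA against Usf2 (siRNA-USF2), a transcription factor that binds E-box sequences. All samples carry the genotype label WT and came from myoblasts grown in serum-containing medium. The labels give neither a time after transfection nor a switch to differentiation medium, and they do not say whether replicates were separate cultures, so p-values rest on the spread of these libraries, part or all of which could be technical. The stated question is which genes respond to the knockdown.

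Pax3 and Pax7 are paired-box factors that mark muscle progenitors, Pax3 mainly in the embryo and Pax7 in satellite cells, the stem cells of adult muscle. Sine oculis proteins are homeodomain factors that bind MEF3 sequences in muscle genes and switch on myogenic regulators. Eya proteins do not bind DNA themselves. They join sine oculis proteins as coactivators and also carry a phosphatase domain. The 3 families act together upstream of Myf5, Myod1 and Myog in the embryo, and sine oculis and Eya proteins continue to act as myoblasts differentiate.

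The knockdown was visible in siUsf2 1 and 2 and not in the third library of that label. Usf2 was at 26.2, 31.2 and 23.0 CPM (counts scaled to the library total) across siControl 1 to 3, at 17.1 and 15.3 CPM for siUsf2 1 and 2, and at 30.8 CPM for the library labelled siUsf2 3. That library also held 3414565 counts, against 14790997 to 17715250 in the other 5, and 0.974% of its counts lay on pseudogenes, against 14.0% to 15.3%. It is therefore shown apart, and each comparison is given with all 6 libraries and with the 5 that leave it out. Myoblast and muscle markers (Myod1, Myf5, Myog, Des, Cdh15 and Chrna1) were detected in every library, with a summed level of 3406 to 4113 CPM among controls, 2202 to 2386 CPM among siUsf2 1 and 2 and 3082 CPM for the library labelled siUsf2 3. Marker sums of leukocytes, endothelium, epithelium, neurons and adipocytes were at most 2.69 CPM in any library, and Itgam, Snap25, Sox10 and Sall1 were at 0 in all 6. The fibroblast list, led by Pdgfra, stood at 166 to 188 CPM among controls, 166 to 186 CPM among siUsf2 1 and 2 and 149 CPM for the library labelled siUsf2 3. The neural crest list, almost all of it Mitf, was at 17.2 to 18.7, 20.4 to 23.1 and 19.9 CPM in the same order. The list of kidney and ear progenitors, tissues where these families are also active, was at 6.12 to 7.17, 9.10 to 9.44 and 7.91 CPM, made of Gata3 and Wt1 (Wt1 alone was at 0.608 to 0.734, 2.68 to 3.48 and 1.76 CPM), and its part in the results below was not tested.

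Of the 9 genes, 7 had enough counts to be tested. Pax3, the embryonic paired-box factor, was hit by 3, 2 and 0 reads in the controls, 6 and 1 in siUsf2 1 and 2, and 0 reads in the library labelled siUsf2 3. Six2, a regulator of kidney and limb progenitors, had 0 counts in 5 libraries and 1 count in the library labelled siUsf2 3. Taking 3 counts as the limit that a count of 0 allows, Six2 could be at up to 0.203 CPM in siControl 1. By the same rule Pax3 could be at up to 0.879 CPM in the library labelled siUsf2 3. These limits cover counting error only. Pax3 and Six2 did not pass the filter on low counts in either comparison. Without a filter, Pax3 entered both fits and Six2 the 6-library fit, and neither was called.

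The remaining 7 genes spanned more than an order of magnitude in level per length, given as CPM per kb of the union of annotated exons. In siControl (mean ± SD, n = 3) Six4 led with 14.9 ± 0.637 CPM per kb, followed by Eya3 with 13.8 ± 0.266. Their ranges over the siControl libraries overlapped. Inside each siControl library Six4 was above Eya3 (15.2 against 14.1, 14.1 against 13.7 and 15.2 against 13.7 CPM per kb). In the library labelled siUsf2 3 it was below Eya3 (10.2 against 11.1), and the order was not tested. Eya4 with 10.3 ± 1.01 and Pax7 with 9.26 ± 0.718 CPM per kb came next. Their ranges overlapped as well, with Eya4 above Pax7 inside each siControl library. Eya1 was at 7.01 ± 0.602, Six5 at 4.80 ± 1.14 and Eya2 at 1.14 ± 0.207 CPM per kb, each with every siControl library below those of the gene before it. In siUsf2 1 and 2 Eya1 averaged 9.38 CPM per kb and Pax7 9.16 CPM per kb, so that these neighbours no longer stood apart there. The exon union counts every annotated exon, and which isoforms the cells used was not measured.

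**Figure D1:**
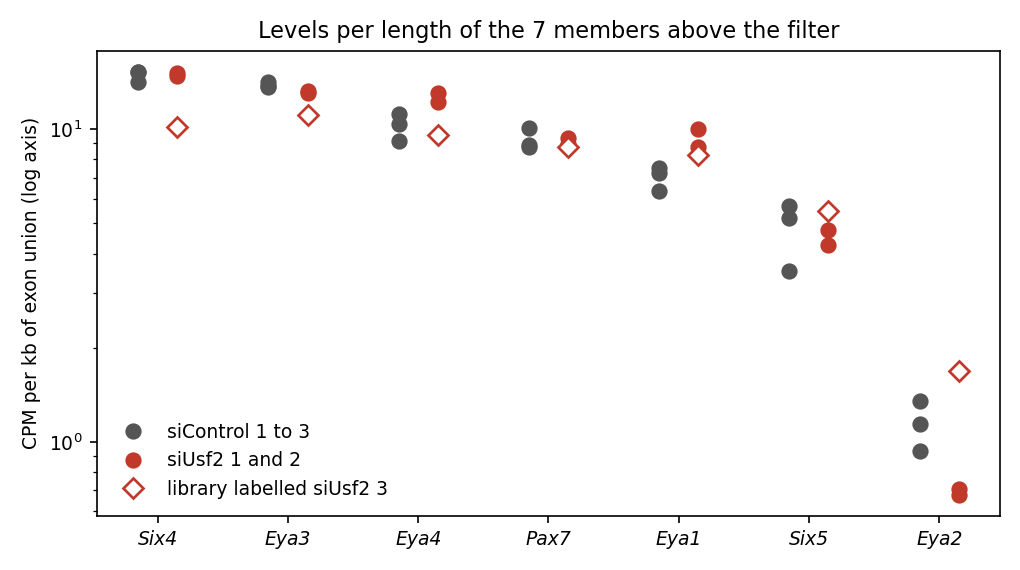
Levels per length (CPM per kb of exon union, log axis) of the 7 tested genes in each library, with siControl in grey, siUsf2 1 and 2 in filled red and the library labelled siUsf2 3 as an open diamond. Six4 and Eya3 lie highest, near 14 to 15 CPM per kb in siControl, and Eya2 lowest, near 1 CPM per kb.

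Among these 7 genes, 2 rose and none fell in the 5 libraries (edgeR, Benjamini-Hochberg adjusted p below 0.05 over 17217 genes tested), where 4.97% of all genes rose and 6.4% fell (855 and 1102 genes, or 1124 and 900 with upper-quartile normalization, which left the 2 members called). The genes that rose were the coactivators Eya1 and Eya4. With all 6 libraries none of the 7 passed, where 0.042% of all 16662 genes tested were called; Eya1 was the 1 member with an unadjusted p below 0.05 there, as were 1753 genes in all, and DESeq2 and limma-voom also called 0 members. As a plain order of libraries, 2 of the 7 genes lay above every siControl library in both siUsf2 1 and 2 and 2 lay below, against 21.8% and 19.5% of all genes tested. Over all 6 libraries 1 lay above (Eya1) and 1 below (Eya3), against 11.4% and 11.2%. These orders use CPM over totals that include pseudogene counts, which were far fewer in the library labelled siUsf2 3. With pseudogene counts taken out of the totals, Eya1 in that library falls below siControl 1 and siControl 3, and Eya3 stays below every control. The shares over all genes were not computed on such totals.

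**Figure D2:**
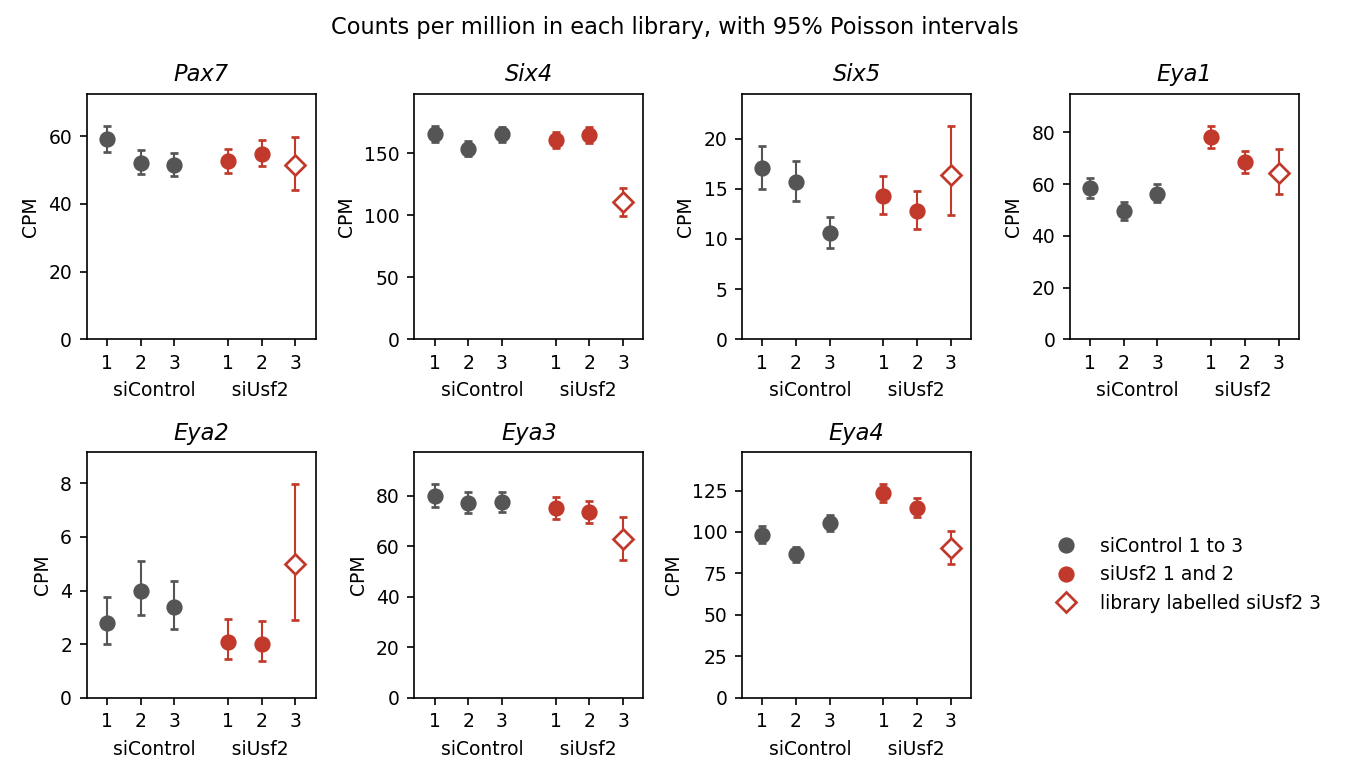
CPM of each tested gene in each library, with exact 95% Poisson intervals, for siControl 1 to 3 (grey), siUsf2 1 and 2 (filled red) and the library labelled siUsf2 3 (open diamond). Eya1 and Eya4 are higher in siUsf2 1 and 2 than in any siControl library, and Six4 stands low in the library labelled siUsf2 3, at 110 CPM.

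Pax7 (ENSMUSG00000028736, chromosome 4 at 139737062 to 139833528, minus strand, GRCm38) was at a like CPM in every library. It held 59.1, 52.2 and 51.5 CPM in siControl 1 to 3, 52.5 and 54.8 CPM in siUsf2 1 and 2, and 51.5 CPM in the library labelled siUsf2 3. All siUsf2 values lay within the siControl range on totals that include pseudogene counts. With pseudogene counts taken out of the totals, siUsf2 1 and 2 stay within it and the library labelled siUsf2 3 falls below all others. The log2 fold change in the 5 libraries was -0.03 (SE 0.10, 95% interval -0.23 to 0.18, edgeR adjusted p = 0.904), an interval that runs from 0.851-fold to 1.13-fold. With all 6 libraries it was -0.07 (SE 0.09, 95% interval -0.30 to 0.17, edgeR adjusted p = 0.866).

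Six4 (ENSMUSG00000034460, chromosome 12 at 73099609 to 73113456, minus strand), a homeodomain factor of embryonic muscle and its myoblasts, was equally level in 5 libraries. It held 166, 153 and 165 CPM in siControl 1 to 3 and 160 and 165 CPM in siUsf2 1 and 2, with the groups overlapping. The 5-library log2 fold change was -0.00 (SE 0.09, 95% interval -0.18 to 0.17, edgeR adjusted p = 0.989). The library labelled siUsf2 3 stood below all others at 110 CPM (95% Poisson interval 99.5 to 122), and the 6-library value was -0.18 (SE 0.18, 95% interval -0.64 to 0.28, edgeR adjusted p = 0.817). Relative to the mean of siUsf2 1 and 2, Six4 was at -0.56 on the log2 scale in that library. The 1269 tested genes whose exon union, like that of Six4 with 10855 bases, reaches 10000 bases had a median of -0.16 in the same ratio, computed on log2(CPM + 1), against -0.05 for all genes, and its part in the Six4 value was not tested.

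Near a start of Six4 lies a copy of the sequence that sine oculis proteins are known to bind. The MEF3 motif (TCAGGTTTC, searched on both strands) occurs in 0.429% of the 32851 RefSeq promoter windows of GRCm38.p6, each of 300 bases from 250 before to 50 after a start. Windows were found for 6 of the 9 genes (Pax7, Six2, Six4, Six5, Eya3 and Eya4), 8 windows in all, and 1 of them, at Six4, holds the motif. It is shown because Six4 belongs to the family that recognises it. The stretch is read from the minus strand at chr12:73113327-73113353 (GRCm38.p6), with 90 bases between the motif and 1 of the 2 RefSeq starts and downstream of the other start. The motif, here as its reverse complement, is in capitals.
Six4: ggcctggggGAAACCTGAtcggccaga
The E-box CACGTG, the palindrome that USF factors are known to bind, occurs in 7.15% of all windows and in 0 of the 8 windows of these genes. That says only that these letters are not in these windows, and binding was not measured.

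Six5 (ENSMUSG00000040841, chromosome 7 at 19094594 to 19098549, plus strand), a homeodomain factor known from the myotonic dystrophy locus, varied among controls more than between groups. It held 17.0, 15.7 and 10.6 CPM in siControl 1 to 3, 14.3 and 12.8 CPM in siUsf2 1 and 2, and 16.4 CPM in the library labelled siUsf2 3. Every siUsf2 library lay within the siControl range. The log2 fold change was -0.10 in the 5 libraries (SE 0.18, 95% interval -0.47 to 0.27, edgeR adjusted p = 0.790) and -0.03 in all 6 (SE 0.22, edgeR adjusted p = 0.968). The 5-library interval runs from 0.724-fold to 1.21-fold.

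Six5 starts 772 bases downstream of Dmpk, the kinase gene of that locus, on the same strand. Dmpk held 287, 267 and 225 CPM in siControl 1 to 3, 207 and 199 CPM in siUsf2 1 and 2, and 307 CPM in the library labelled siUsf2 3. In the 5 libraries Dmpk fell by 0.37 in log2 terms (SE 0.09, edgeR adjusted p = 0.0102) and did not pass in all 6 (-0.17, SE 0.18, edgeR adjusted p = 0.831). Whether the changes of Dmpk and Six5 differ was not tested. In siControl 3 both genes were at their lowest among the controls.

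Eya1 (ENSMUSG00000025932, chromosome 1 at 14168954 to 14310235, minus strand), a coactivator of muscle, ear and kidney development, had the larger of the increases in the 5 libraries. It held 58.5, 49.5 and 56.3 CPM in siControl 1 to 3, 78.1 and 68.4 CPM in siUsf2 1 and 2, and 64.4 CPM (95% Poisson interval 56.2 to 73.5) in the library labelled siUsf2 3. All 3 siUsf2 libraries lay above all 3 siControl libraries in CPM over totals that include pseudogene counts. Pseudogenes held 0.974% of the counts in the library labelled siUsf2 3, against 14.0% to 15.3% in the others. With pseudogene counts taken out of the totals, the library labelled siUsf2 3 falls below siControl 1 and siControl 3. Its place above all controls thus rests on totals of unlike makeup, while siUsf2 1 and 2 stay above every control. The mean went from 54.8 ± 4.70 CPM (SD, n = 3) to 73.3 ± 6.91 CPM (SD, n = 2) in the 5 libraries, a log2 fold change of 0.41 (SE 0.10, 95% interval 0.20 to 0.61, edgeR adjusted p = 0.00717), or 1.33-fold. The call ended without siControl 2 (0.34, edgeR adjusted p = 0.0539), the highest adjusted p among alternatives that kept siUsf2 1 and 2. The lowest was 1.16e-04 (edgeR with the replicate block). Leaving out siUsf2 1 or siUsf2 2 leaves 1 siUsf2 library, and the log2 fold change was then 0.32 or 0.49. With all 6 libraries the log2 fold change was 0.33 (SE 0.12, 95% interval 0.02 to 0.64, edgeR adjusted p = 0.437).

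Eya4 (ENSMUSG00000010461, chromosome 10 at 23102963 to 23350786, minus strand), a close relative of Eya1, rose by a smaller amount. It held 98.2, 86.5 and 105 CPM in siControl 1 to 3 and 123 and 115 CPM in siUsf2 1 and 2, with no overlap. The log2 fold change in the 5 libraries was 0.29 (SE 0.09, 95% interval 0.09 to 0.48, edgeR adjusted p = 0.0473), or 1.22-fold, from 96.6 ± 9.47 CPM (SD, n = 3) to 119 ± 6.11 CPM (SD, n = 2). This call was marginal. It ended with DESeq2 (adjusted p = 0.0597), with edgeR without robust estimation (adjusted p = 0.0582), and without siControl 1 or siControl 2 (edgeR adjusted p = 0.128 and 0.196). The lowest adjusted p was 4.06e-04 (edgeR with the replicate block). Leaving out siUsf2 1 or siUsf2 2 leaves 1 siUsf2 library, and the log2 fold change was then 0.25 or 0.32. The library labelled siUsf2 3 held 90.2 CPM (95% Poisson interval 80.4 to 101), within the siControl range on totals that include pseudogene counts. With pseudogene counts taken out of the totals, that library falls below every control, opposite to the rise in siUsf2 1 and 2. The 6-library value was 0.15 (SE 0.16, edgeR adjusted p = 0.827), or 0.06 without siUsf2 1 and 0.07 without siControl 2.

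Eya3 (ENSMUSG00000028886, chromosome 4 at 132638987 to 132724765, plus strand), the Eya gene with the highest level per length in siControl, did not pass. It held 79.8, 77.2 and 77.3 CPM in siControl 1 to 3, 75.0 and 73.5 CPM in siUsf2 1 and 2, and 62.7 CPM in the library labelled siUsf2 3. All siUsf2 values lay below the siControl range, by a small margin in siUsf2 1 and 2. The log2 fold change was -0.09 in the 5 libraries (SE 0.09, 95% interval -0.27 to 0.10, edgeR adjusted p = 0.613) and -0.18 in all 6 (SE 0.11, edgeR adjusted p = 0.649).

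Eya2 (ENSMUSG00000017897, chromosome 2 at 165595032 to 165771727, plus strand) had few reads, 17 to 64 per library. It held 2.77, 3.998 and 3.39 CPM in siControl 1 to 3, 2.09 and 2.01 CPM in siUsf2 1 and 2, and 4.98 CPM (95% Poisson interval 2.90 to 7.97) in the library labelled siUsf2 3. The siUsf2 1 and 2 values lay below every control and the library labelled siUsf2 3 above every control. The log2 fold change was -0.74 in the 5 libraries (SE 0.32, 95% interval -1.40 to -0.08 for this gene alone, edgeR adjusted p = 0.144) and -0.33 in all 6 (SE 0.40, edgeR adjusted p = 0.850), and neither passed. The 6-library value was -0.17 without siControl 2, -0.10 without siUsf2 1, -0.09 without siUsf2 2 and -0.57 with limma-voom.

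**Figure D3:**
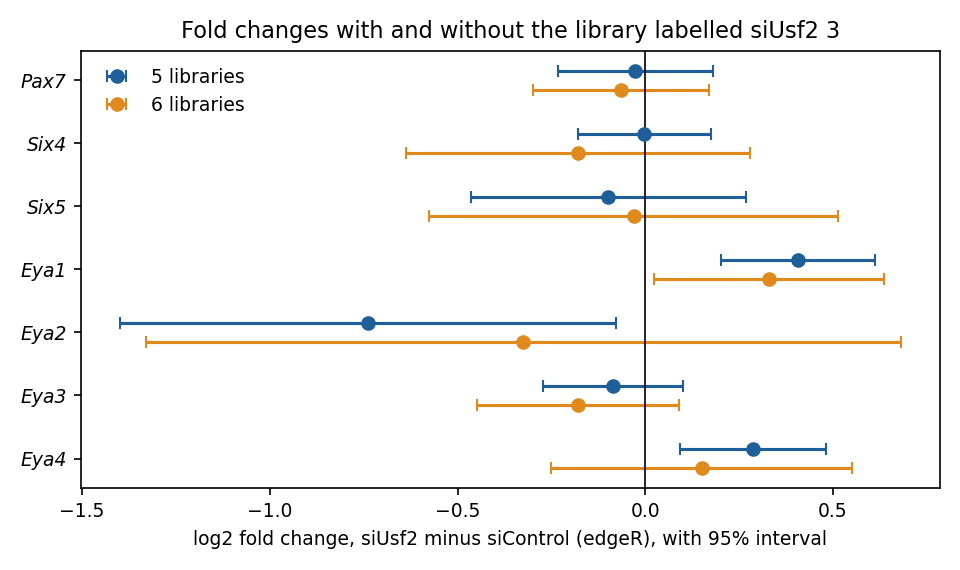
Log2 fold change (siUsf2 minus siControl, edgeR, with 95% intervals not adjusted for multiple genes) of the 7 tested genes in the 5 libraries (blue) and all 6 (orange). Eya1 and Eya4 lie right of 0 at 0.41 and 0.29 in the 5 libraries, and Pax7 and Six4 lie near 0 at -0.03 and -0.00.

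The levels of the Eya genes were also set against that of Eya3 inside each library, a measure that needs no scaling between libraries. Eya1 per length was 0.530, 0.464 and 0.527 times Eya3 in siControl 1 to 3, 0.753 and 0.673 times in siUsf2 1 and 2, and 0.744 times in the library labelled siUsf2 3. Eya4 was 0.737, 0.672 and 0.816 times Eya3 in siControl, 0.985 and 0.935 times in siUsf2 1 and 2, and 0.863 times in the library labelled siUsf2 3. For both ratios all 3 libraries labelled siUsf2 lay above all 3 siControl libraries, while the Eya2 ratio overlapped between groups. Eya3 itself was lower in CPM in all 3 libraries labelled siUsf2 than in any control, which raises each ratio. In the library labelled siUsf2 3, Eya3 was at 62.7 CPM, and Eya4 was at 90.2 CPM. That Eya4 value was within the siControl range, or below every control with pseudogene counts taken out of the totals. The Eya4 ratio of that library is thus not a sign of a higher Eya4 level. The ratios were chosen after the values of the genes were known and are given as a description. An exact permutation test of 3 against 3 cannot go below p = 0.10, the value for the Eya1 and Eya4 ratios.

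The summed level of the 4 Eya genes was above every control in siUsf2 1 and 2 and within the control range in the third library of that label. It was 33.0, 30.5 and 33.2 CPM per kb for the controls, 37.1 and 34.6 CPM per kb for siUsf2 1 and 2, and 30.6 CPM per kb for the library labelled siUsf2 3. These totals include pseudogene counts. With those taken out, the summed level in the library labelled siUsf2 3 falls below every control, and siUsf2 1 and 2 stay above. Eya3 made up 41.2% to 44.8% of the summed level in siControl, against 35.8% and 37.6% for siUsf2 1 and 2 and 36.3% for the library labelled siUsf2 3. Eya1 made up 20.8% to 22.7% in siControl, against 27.0%, 25.3% and 27.0% in siUsf2 1, 2 and 3 as labelled. For these 2 genes the library labelled siUsf2 3 lay on the side of siUsf2 1 and 2. The Eya4 share was 30.1% to 33.6% in siControl and 35.3% and 35.2% in siUsf2 1 and 2, but 31.3%, within the control range, in the library labelled siUsf2 3. The Eya2 share was 2.84% to 4.42% in siControl, 1.90% and 1.96% for siUsf2 1 and 2, but 5.49% for the library labelled siUsf2 3, on opposite sides of the controls. The shares were not tested.

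**Figure D4:**
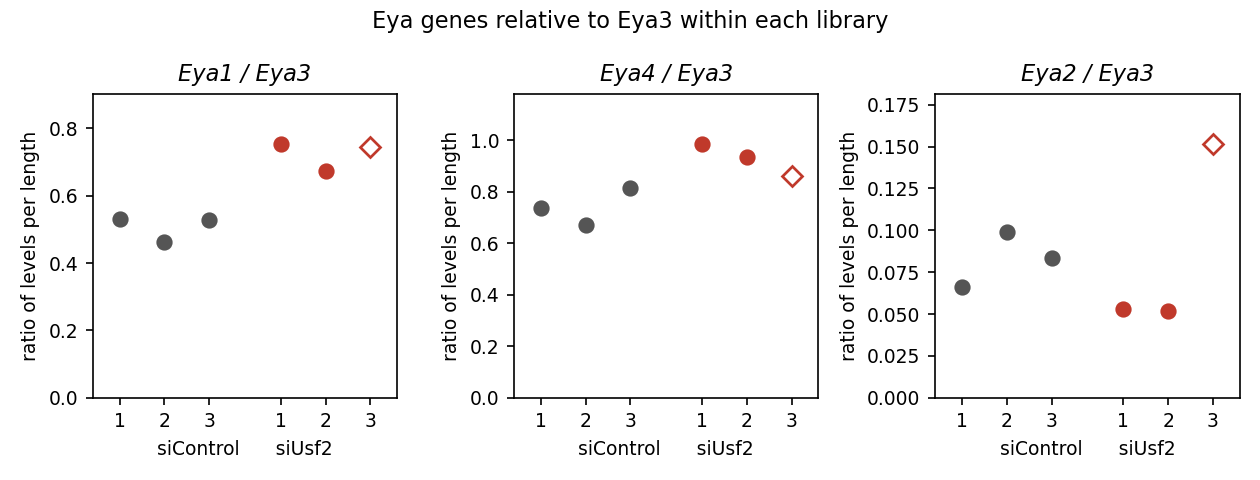
Ratio of the level per length of Eya1, Eya4 and Eya2 to that of Eya3 within each library, siControl in grey, siUsf2 1 and 2 in filled red and the library labelled siUsf2 3 as an open diamond. The Eya1 ratio is 0.464 to 0.530 in siControl and 0.673 to 0.753 in the 3 libraries labelled siUsf2.

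Among genes known to work with these factors, the share that rose was near that of all genes. Of 31 symbols of family members and partners listed, 30 were found in the count table. In the 5 libraries 20 were tested, of which 1 rose, 0 fell and 19 did not pass. The median log2 fold change was -0.04, against -0.01 for all genes tested, of which 4.97% rose and 6.4% fell. With all 6 libraries 0 of 19 passed (median -0.02, against -0.01). The gene that rose was Kmt2a, a histone methyltransferase gene of the enzyme family that Pax7 recruits. Its log2 value was 0.35 in the 5 libraries (SE 0.11, edgeR adjusted p = 0.0334) and 0.15 in all 6 (SE 0.24, edgeR adjusted p = 0.880). Kmt2a held 203, 150 and 198 CPM in siControl, 247 and 227 CPM in siUsf2 1 and 2, and, lower than any control, 148 CPM in the library labelled siUsf2 3. Ash2l, a subunit of the same methyltransferase complexes, was at -0.28 (SE 0.11, edgeR adjusted p = 0.0912), and Aes, a Groucho-type corepressor, at -0.27 (SE 0.11, edgeR adjusted p = 0.142). Baz1b, a chromatin remodelling subunit, was at 0.18 (SE 0.08, edgeR adjusted p = 0.178), and none of these 3 passed. Dach1 and Dach2, corepressor partners of sine oculis and Eya proteins, had 0 counts in all 6 libraries, as had Pax1, Pax2 and Pax4.

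A list that joins known targets of Pax3 and Pax7 with other satellite cell genes held genes that moved in both directions. The list does not tell the targets from the others. Of 22 listed, 18 were tested in the 5 libraries, of which 3 rose, 6 fell and 9 did not pass, with a median of 0.00 against -0.01 for all genes tested, of which 4.97% rose and 6.4% fell; 0 of 18 passed with all 6. Heyl, a Notch-responsive repressor, fell by 1.06 on the log2 scale with an SE of 0.11 (edgeR adjusted p = 4.44e-08); its mean was 114 ± 9.93 CPM in siControl (SD, n = 3) and 54.8 ± 9.13 CPM in siUsf2 1 and 2 (SD, n = 2). Spry1, a brake on receptor tyrosine kinase signalling in satellite cells, fell by 0.81 (SE 0.11), and Cdh15, M-cadherin, by 0.75 (SE 0.10). Cd34, a surface sialomucin of satellite cells, rose by 0.54 (SE 0.09), from 107 ± 4.70 to 157 ± 4.50 CPM. In the library labelled siUsf2 3, Heyl was at 51.5 CPM, Spry1 at 35.7 CPM and Cdh15 at 234 CPM, all lower than in any control, and Cd34 at 132 CPM, above every one.

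Genes listed as targets of sine oculis and Eya proteins in muscle mostly fell. Of 14 listed, 13 were tested in the 5 libraries, of which 9 fell, 0 rose and 4 did not pass, with a median of -0.53 against -0.01 for all genes and 6.4% of all genes falling; with all 6 libraries 0 of 12 passed (median -0.22, against -0.01). Tnnc1, slow and cardiac troponin C, fell by 1.95 on the log2 scale (SE 0.11) and Atp2a1, the calcium pump of fast muscle, by 1.26 (SE 0.10). Tnnt3, fast troponin T, fell by 1.55 (SE 0.13), from 44.7 ± 2.75 to 15.4 ± 2.69 CPM, but held 92.8 CPM in the library labelled siUsf2 3, above every control. Myog fell by 1.77 (SE 0.10).

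Several of these targets are also genes of terminal differentiation, and that programme differed between the groups. The summed level of 10 terminal differentiation genes ranged over 4799 to 5047 CPM for siControl and 1227 to 1336 CPM for siUsf2 1 and 2, with 2256 CPM for the library labelled siUsf2 3, and all 10 fell in the 5 libraries (median -2.12; Mymk at -2.39, Myh3 at -3.20, Acta1 at -2.09 and Tnni1 at -2.14). With all 6 libraries 0 of 10 passed (median -1.72). Its part in the Eya1 and Eya4 values was not tested. In bulk RNA, fewer cells of a state and less RNA per cell cannot be told apart.

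Among the genes whose pattern over the 6 libraries was most like that of Eya1 were Rassf2 and Akap12 (Pearson r of log2(CPM + 1) = 0.998 and 0.992, n = 6 libraries). For Eya4 they were Trove2, Fyco1 and Mdm4 (r = 0.996, 0.995 and 0.994). They were among the best of 10275 protein-coding genes with a mean of at least 5 CPM, and the libraries share depth and treatment, so the values describe likeness only: 277 and 355 genes exceeded r = 0.9. Rassf2 held 20.8, 14.99 and 18.6 CPM in siControl, 34.8 and 26.8 CPM in siUsf2 1 and 2 and 24.0 CPM in the library labelled siUsf2 3. Trove2 held 116, 100 and 133 CPM, 166 and 150 CPM, and 102 CPM in the same order, low like Eya4 in the last.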

How the data were processed

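RNA from 6 C2C12 libraries was compared as the sample titles group them. The deposited table gives whole-number, unnormalized counts per Ensembl gene in 1 column per library. Per the submitters' processing notes, the build was mm10 and the tools were FastQC, Trimmomatic, HISAT2, featureCounts and DESeq2; for their versions, the annotation and the strand setting, the sources used here say nothing. Another deposited table holds the same counts scaled to CPM and was not used. Symbols, positions and exon lengths came from GENCODE M21 (GRCm38), which matched 52133 of 55414 identifiers. No exon of another gene overlaps an exon of these 9 genes, and minimap2 2.31 found 0 other genes with a stretch of at least 150 matching bases at 90% identity to their transcripts.

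CPM was taken from library totals, pseudogene counts included. The total of the library labelled siUsf2 3 thus has another makeup. Totals without pseudogenes were used only for the library order of Pax7, Eya1, Eya3, Eya4 and the Eya sum. Such CPM values are not printed. Genes were tested with edgeR 4.0.16 in R 4.3.3 (filterByExpr, TMM, robust quasi-likelihood test, two-sided) over the whole table. The code was also run on simulated counts, drawn with the same spread for every gene and library. Such counts hold no library of other makeup, so that run cannot test the 6-library fit of the real data. Intervals use the moderated degrees of freedom. Alternatives were RLE, upper-quartile or no composition factors, DESeq2 1.42.0, limma-voom (limma 3.58.1), no robust estimation, other filters, a replicate block and each library left out. Replicates differed by more than counting noise (chi-square per degree of freedom 4.38 to 13.0 without the library labelled siUsf2 3). Against that library it was 102.6 for siUsf2 1 and 102.8 for siUsf2 2. The common spread between replicates that edgeR estimated, as a coefficient of variation, was 40% in all 6 libraries and 9.25% in the 5. A change of the same size is therefore harder to call with all 6. The genes, lists and 5-library comparison were chosen with earlier results of these data known. Named list genes are the 4 with the smallest 5-library p in each list. Some genes are not reported here, and the list counts leave them out.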

Additional observations from a re-analysis of the deposited data

How the results depend on the processing

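The count of called genes among the 9 depended on single libraries. With all 6 libraries it was 0 under every alternative that kept the library labelled siUsf2 3, and 0 to 2 when each library was left out, with 2 without that library. In the 5 libraries it was 2, and 1 with DESeq2 or with edgeR without robust estimation. It was 0 to 2 when 1 siControl library was left out (0 without siControl 2). Leaving out siUsf2 1 or siUsf2 2 leaves 1 library in that group, so those fits are read for effect size only. Among the alternatives that kept both, Eya1 lost its call only without siControl 2. Eya4 lost its call with DESeq2, with edgeR without robust estimation, and without siControl 1 or siControl 2. Both genes were above 0 in all 14 alternatives. With the replicate block, Eya1 was at 0.43 and Eya4 at 0.36 and 2 genes were called; over all genes it called 1719 higher and 2270 lower in the 5 libraries, against 855 and 1102, and 0 in all 6, against 7. The numbers do not pair the samples by any label, and same-numbered libraries did not deviate together (correlations -0.14, -0.00 and -0.11 in all 6, 0.06 and -0.00 in the 5). Over all genes of the 6 libraries, DESeq2 called 296 higher and 410 lower, limma-voom 19 and 87, no filter 12 and 104, RLE 0 and 4, library totals 0 and 3 and upper quartile 0 and 0 (1835 at an unadjusted p below 0.05), against 0 and 7. In the 5 libraries, leaving 1 siControl library out gave from 469 higher and 586 lower (without siControl 1) to 1596 and 1964 (without siControl 3). Signs turned for genes near 0. In the 5 libraries Six4 was at 0.00403 with RLE, 0.0103 with library totals, 0.0343 with upper quartile, 0.00401 with DESeq2, 0.00409 with the 1 CPM filter and 0.0191 with the replicate block, and -0.0418 to 0.0302 with a library left out. Pax7 was at 0.0108 with upper quartile and -0.0721 to 0.0376 with a library left out, and Six5 at -0.273 to 0.0368. With all 6 libraries Six5 was at 0.00251 with library totals and 0.0123 with upper quartile, and -0.205 to 0.103 with a library left out. None of these passed, and the cause was not tested. Eya2 rests on 17 to 64 counts a library.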
